A study of Arabidopsis thaliana with 6 samples.

Results

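Plant mitochondria can pass electrons around the main respiratory chain. Alternative NAD(P)H dehydrogenases feed electrons from NADH or NADPH to ubiquinone without pumping protons, and alternative oxidases (AOX) pass electrons from ubiquinol straight to oxygen, so neither step conserves energy as complexes I, III and IV do. AOX1A is widely used in Arabidopsis as a marker of mitochondrial stress, and its transcript responds to signals sent from the mitochondrion to the nucleus.

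The 10 genes described here are the 5 AOX genes (AOX1A, AOX1B, AOX1C, AOX1D and AOX2), the internal dehydrogenase genes NDA1 and NDA2, whose proteins face the mitochondrial matrix, and the external dehydrogenase genes NDB1, NDB2 and NDB4, whose proteins face the intermembrane space. They are 10 of the 27947 genes in the table and have 13 of its 45666 transcripts. They were taken by gene identifier, and the set was selected on gene families with the cdc5 against Col-0 FPKM values of these libraries already known. Their levels in that comparison are therefore a description, with no test. The relatives NDB3 and NDC1 and the plastid oxidase PTOX are outside the set and were tested.

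Polyadenylated RNA was sequenced from Arabidopsis thaliana labelled as rosette leaves, with 3 libraries from wild-type Col-0 plants and 3 from the mutant cdc5. CDC5 is a MYB-related partner of the spliceosome. The labels give no plant age, no treatment and no cdc5 allele, and the numbers 1 to 3 in the mutant titles could also be read as allele names, in which case its spread would span alleles. Separate plants are not stated for libraries of one genotype. The p-values thus reflect library-to-library spread alone, which may be technical. The level of CDC5 itself was 38.2, 37.0 and 36.1 FPKM in the wild type against 21.8, 21.3 and 21.0 FPKM in the mutant. FPKM is the number of fragments per kilobase of transcript, scaled to library size, so levels can be compared between genes. The table gives no read counts. Steps between low values correspond to 19.4 to 25.7 M fragments per library.

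The tissue label does not describe all of the RNA. The 7 rosette leaf markers summed to 11103 to 13180 FPKM in Col-0 and 13153 to 13376 in cdc5, but the 6 floral organ markers (AG, AP3, PI, SEP3, AP1 and LFY) also summed to 625 to 671 FPKM in Col-0 and 511 to 521 in cdc5. The 7 anther and pollen markers summed to 489 to 516 FPKM in Col-0 and 344 to 357 in cdc5. None of these 13 genes was at 0, so RNA of floral and pollen marker genes was present in every library, with lower sums in cdc5. The sums are carried by a few high genes, and single markers differed. Over all genes tested, limma called 33.3% higher in cdc5 and 22.4% lower. Of the rosette leaf markers, 4 rose and none fell, although their sums overlapped between the genotypes. Of the floral organ markers, 3 fell and none rose, and of the anther and pollen markers 5 fell (among them VGD1, from 239.9 to 144 FPKM) and 2 rose (MS1 and TDF1, 1.40-fold and 1.41-fold, limma adjusted p = 0.023 and 0.032). Both of these calls were lost without Col-0 replicate 2, Col-0 replicate 3 or cdc5 replicate 1, with limma adjusted p = 0.079, 0.075 and 0.077 for MS1 and 0.080, 0.093 and 0.083 for TDF1. TDF1 was also lost without cdc5 replicate 3 (0.091). The ranges over all alternatives were 0.0052 to 0.079 for MS1 and 0.021 to 0.093 for TDF1. Of the 4 root markers and of the 4 seed markers in the table, 3 each stayed under 0.5 FPKM in every library, the exceptions being SCR and FUS3. The part of the floral and leaf marker differences in the values below was not tested. In bulk tissue, fewer cells of a type and less RNA per cell cannot be told apart.

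Short sequences are shown here because a published motif, the mitochondrial dysfunction motif, is known from promoters of AOX1A and other genes that respond to mitochondrial stress, where the NAC factors ANAC013 and ANAC017 bind it. It was searched as CTTGNNNNNCAAG and CTTGNNNNNCACG on both strands. In the 1000 bases before the annotated start, 3 of the 10 genes held it (AOX1B, NDA1 and NDB2), and in the 1000 bases before the start codon, a window added after the first was seen, 4 did (AOX1A as well). Either window held it in 4.4% of 27431 nuclear protein-coding genes. The sequences are from TAIR10.1, on the strand of the gene, 5′ to 3′, with the motif or its reverse complement in capitals and 8 bases on each side.
AOX1A, chr3:7906510-7906538, across the annotated start: atctagctCTTGGCGACCACGcaagtatc
AOX1A, chr3:7906537-7906565, 24 bases after the annotated start: tcttccatCTTGCTCTCCAAGaaaaatct
AOX1B, chr3:7903971-7903999, 118 bases before the start, reverse complement: tgtcttttCGTGTGCTACAAGtcttttag
NDA1, chr1:2204026-2204054, 70 bases before the start: tgtcgtttCTTGCGCATCAAGttctgctg
NDB2, chr4:2572340-2572368, 79 bases before the start: cgatctggCTTGGCCACCAAGattgtttg
NDB2, chr4:2571767-2571795, 652 bases before the start, inside the neighbour AT4G05018, reverse complement: acccggttCGTGATGATCAAGaggtttcc

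Whether the motif goes with the direction of change was not tested. Of the 4 genes with the motif, AOX1A and NDA1 stood higher in cdc5, AOX1B stood lower, and the NDB2 libraries overlapped. NDB4, which stood much higher in cdc5, had no match in either window, as did AOX1C, AOX1D, AOX2, NDA2 and NDB1. Before the annotated start, a W-box (TTGACC or TTGACT, either strand), a site known for WRKY factors, was found in all 10 genes against 67.3% of genes, and a G-box (CACGTG, the same on both strands) in AOX2 alone against 14.8%. Before the start codon, the W-box was found in 8 of the 10 genes against 67.2% and the G-box in 3 (AOX1A, AOX2 and NDB2) against 15.1%. A match is a run of letters and does not show a bound site.

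**Figure D1:**
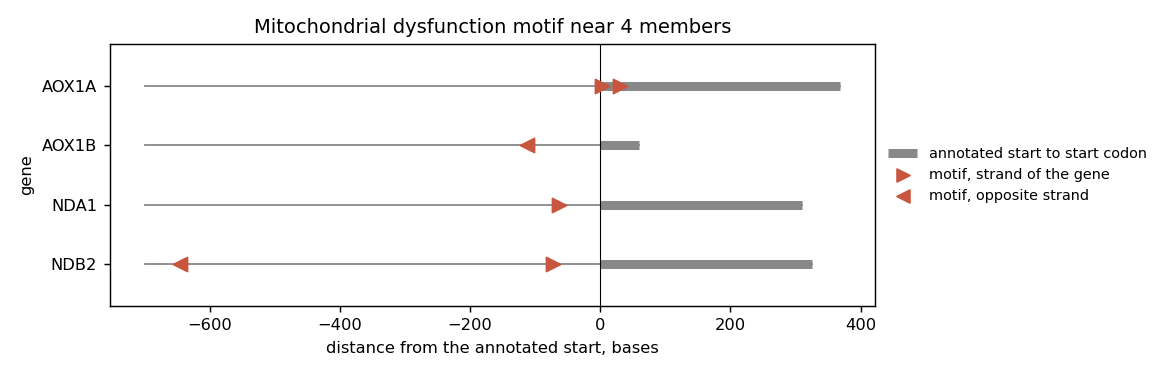
Position of each mitochondrial dysfunction motif relative to the annotated start, in bases, in the 4 genes that hold one. Arrowheads show its strand, thick bars run from the annotated start to the start codon, and in AOX1A the first match lies across the start and the second 24 bases after it.

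AOX1A (AT3G22370, chromosome 3, 7906521 to 7908746, plus strand, 4 exons), the main stress-responsive oxidase gene, was the member with the highest level in cdc5. Its level was 13.3, 13.6 and 12.4 FPKM in the Col-0 libraries and 84.0, 86.0 and 88.3 FPKM in the cdc5 libraries. All cdc5 libraries lay far above all Col-0 libraries, with means of 13.1 ± 0.616 and 86.1 ± 2.16 FPKM (SD, n = 3 each), a 6.56-fold difference. The log2 fold change was 2.63 (SE 0.046) on the log2(FPKM + 1) scale used throughout, which ranked 14 of 19778 genes from the highest. Each AOX1A value rests on an estimated 466 fragments or more. The table lists 1 transcript for this gene, with no overlapping gene.

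AOX1B (AT3G22360, chromosome 3, 7904097 to 7905576) lies 944 bases before AOX1A on the same strand and was lower in cdc5. Its level was 3.89, 3.46 and 3.73 FPKM in Col-0 and 2.26, 2.02 and 2.52 FPKM in cdc5. The genotypes did not overlap, and the cdc5 mean was 61.4% of the Col-0 mean, with a log2 fold change of -0.52 (SE 0.094). These tandem neighbours thus stood on opposite sides of their Col-0 levels.

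AOX1C (AT3G27620, chromosome 3, 10229045 to 10230707, minus strand) was low in both genotypes and higher in cdc5. Its level was 1.51, 1.59 and 1.41 FPKM in Col-0 and 2.82, 2.54 and 3.15 FPKM in cdc5, a 1.89-fold difference in means with a log2 fold change of 0.61 (SE 0.10). The libraries did not overlap. AOX1B and AOX1C are the most alike pair of the oxidase family, with 87.3% identical bases over their aligned coding sequences and a longest identical run of 42 bases. AOX1A shared 81.4% with each of them, with runs of 26 and 34 bases. The handling of fragments that match several copies was not given in the sources used here, so the separate levels of AOX1B and AOX1C are less certain than their sum.

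AOX1D (AT1G32350, chromosome 1, 11666886 to 11668690, named AOX3 in the table) and AOX2 (AT5G64210, chromosome 5, 25683770 to 25685731) were at the edge of detection. AOX1D is known as an oxidase gene that can respond to stress when AOX1A is missing, and AOX2 is known mainly from seeds. AOX1D was listed at 0, 0 and 0.031 FPKM in Col-0 and at 0, 0.027 and 0.018 FPKM in cdc5. AOX2 was listed at 0 in every library except cdc5 replicate 2, at 0.030 FPKM. The largest of these values corresponds to an estimated 1.02 fragments. A floor of 3 fragments lies at 0.081 to 0.108 FPKM for AOX1D and at 0.088 to 0.117 FPKM for AOX2, counting error only, so no fold is given and expression below that level was not detectable at this depth.

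Together the AOX genes summed to 18.7, 18.7 and 17.6 FPKM in Col-0 and to 89.1, 90.6 and 94.0 FPKM in cdc5. AOX1A made up 71.6 ± 1.23% of that sum in Col-0 and 94.4 ± 0.482% in cdc5 (n = 3 per genotype, SD). AOX1B went from 20.2 ± 1.43% to 2.48 ± 0.230%, and AOX1C from 8.19 ± 0.267% to 3.11 ± 0.278%. Without AOX1A the family sum was 5.21 ± 0.182 FPKM in Col-0 and 5.13 ± 0.535 FPKM in cdc5, with overlapping libraries. The lower AOX1B and higher AOX1C levels nearly offset each other in that sum.

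**Figure D2:**
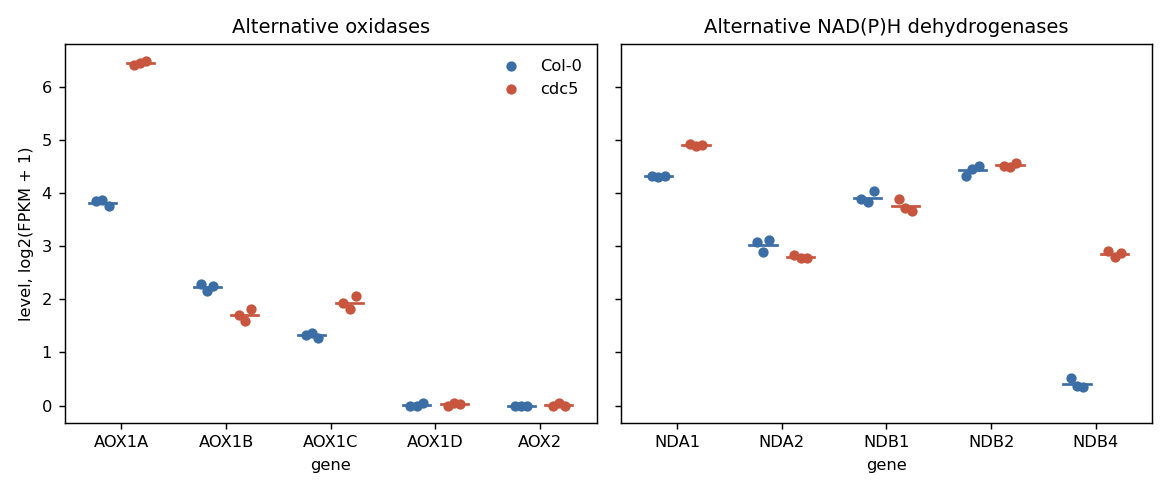
Level of each gene in each library as log2(FPKM + 1), with 1 point per library and a bar at the mean of 3, Col-0 in blue and cdc5 in red. AOX1A and NDB4 show the widest gaps between the genotypes, NDB1 and NDB2 overlap, and AOX1D and AOX2 lie at or near 0 in all libraries.

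NDB4 (AT2G20800, chromosome 2, 8953057 to 8955831, minus strand), an external dehydrogenase gene, was low in Col-0 and higher in cdc5. Its level was 0.438, 0.291 and 0.274 FPKM in Col-0 and 6.48, 5.94 and 6.35 FPKM in cdc5. The lowest cdc5 library stood far above the highest Col-0 library, and the ratio of means, 0.335 ± 0.090 against 6.25 ± 0.285 FPKM, was 18.7-fold. On the log2(FPKM + 1) scale, which compresses low levels, the fold change was 2.44 (SE 0.097), and with a pseudocount of 0.1 it was 3.89. The Col-0 values rest on an estimated 21.8, 11.7 and 13.1 fragments, so the size of the ratio is less certain than its direction. NDB4 had no overlapping gene, and its coding sequence shared 72.1% with both NDB2 and NDB3.

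NDA1 (AT1G07180, chromosome 1, 2204104 to 2207099, plus strand), an internal dehydrogenase gene known to be raised by light, was higher in cdc5. Its level was 19.1, 18.7 and 18.9 FPKM in Col-0 and 29.3, 28.5 and 29.0 FPKM in cdc5. The libraries of each genotype lay close together and the groups did not overlap, with a 1.54-fold difference in means and a log2 fold change of 0.59 (SE 0.041).

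NDA2 (AT2G29990, chromosome 2, 12793320 to 12796085, minus strand), the other internal gene, was slightly lower in cdc5. Its level was 7.43, 6.37 and 7.62 FPKM in Col-0 and 6.17, 5.88 and 5.86 FPKM in cdc5, or 83.6% of the Col-0 mean, with a log2 fold change of -0.22 (SE 0.078). The groups were separate by a small margin, since the lowest Col-0 library stood just above the highest cdc5 library. NDA1 and NDA2 share 81.1% of their aligned coding bases, with a longest identical run of 32 bases.

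NDB2 (AT4G05020, chromosome 4, 2572427 to 2576599, plus strand), an external dehydrogenase gene often reported to respond to stress together with AOX1A, was the dehydrogenase gene with the highest level in Col-0. Its level was 19.1, 21.0 and 21.7 FPKM in Col-0 and 21.8, 21.5 and 22.8 FPKM in cdc5, and the groups overlapped. The log2 fold change was 0.09 (SE 0.057), and it turned to -0.07 after adjustment for gene length and GC content. A minor transcript, AT4G05020.2, was listed at 0.010, 0 and 0.011 FPKM in Col-0 and 0.065, 0.028 and 0.362 FPKM in cdc5, which is 0.671 ± 0.798% of the gene in cdc5. The authors' deposited table marks that transcript as significant with a fold of 22.4 and a q-value of 0.0193, although cdc5 replicate 3 holds most of its signal.

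NDB1 (AT4G28220, chromosome 4, 13992210 to 13995831, plus strand), the external gene whose protein is known to oxidise NADPH, also overlapped between genotypes. Its level was 13.7, 13.2 and 15.3 FPKM in Col-0 and 13.8, 12.1 and 11.7 FPKM in cdc5, a log2 fold change of -0.15 (SE 0.078). The shorter transcript AT4G28220.2 made up 6.0 ± 0.601% of the gene in Col-0 and 5.32 ± 3.12% in cdc5. The 3′ end of NDB1 overlaps AT4G28230 on the opposite strand by 53 bases, where fragments cannot be assigned with certainty.

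The 5 dehydrogenase genes summed to 59.7, 59.5 and 63.8 FPKM in Col-0 and to 77.5, 74.0 and 75.7 FPKM in cdc5. NDA1 made up 31.0 ± 1.21% of the sum in Col-0 and 38.3 ± 0.379% in cdc5, and NDB4 0.551 ± 0.161% and 8.26 ± 0.200% (n = 3 per genotype, SD). NDB2 went from 33.8 ± 1.69% to 29.1 ± 1.009% and NDB1 from 23.0 ± 0.972% to 16.6 ± 1.17%, although their own levels overlapped. The ratio of the AOX sum to the dehydrogenase sum was 0.313, 0.314 and 0.276 in Col-0 and 1.15, 1.22 and 1.24 in cdc5. Which pool was the larger in cdc5 depended on the genes counted. With the relatives NDB3 and NDC1 added, a choice made after seeing the data, the dehydrogenase sum was 100.1, 96.7 and 97.8 FPKM in cdc5. The ratio was then 0.226, 0.225 and 0.201 in Col-0 and 0.890, 0.936 and 0.961 in cdc5, below 1 in every library. With NDB3 alone added, the cdc5 ratios were 1.09, 1.16 and 1.18. Under each choice the genotypes did not overlap, and the dehydrogenase sum was the larger in every Col-0 library.

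**Figure D3:**
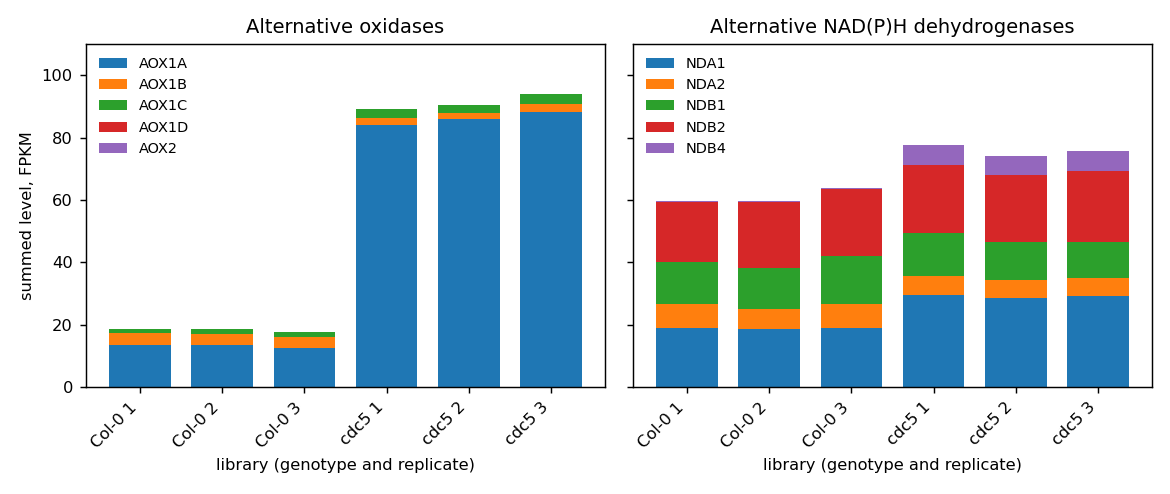
Summed FPKM of each gene family in each library, stacked by gene, on a shared axis that starts at 0. The AOX bars reach 17.6 to 18.7 FPKM in Col-0 and 89.1 to 94.0 FPKM in cdc5, nearly all of the gain in AOX1A, while the dehydrogenase bars reach 59.5 to 63.8 and 74.0 to 77.5 FPKM.

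In Col-0 the order of levels was NDB2, NDA1, NDB1, AOX1A, NDA2, AOX1B, AOX1C, NDB4, AOX1D and AOX2. Only NDB1 and AOX1A, and AOX1D and AOX2, overlapped with their neighbour in that order. In cdc5 AOX1A stood first, followed by NDA1, NDB2, NDB1, NDB4, NDA2, AOX1C and AOX1B, with AOX1D and AOX2 last. There NDB4 and NDA2 overlapped, as did AOX1D and AOX2. AOX1A thus moved from the fourth place to the first, and NDB4 from the eighth to the fifth.

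Of the 10 genes, 8 reached a mean of 1 FPKM over the libraries, the filter of the fit across all genes, and AOX1D and AOX2 did not. NDB4 reached it only through its cdc5 libraries, so a gene at its Col-0 level had to be higher in cdc5 to be counted. Libraries did not overlap in 4 genes with cdc5 higher (AOX1A, AOX1C, NDA1 and NDB4) and in 2 with cdc5 lower (AOX1B and NDA2). Over all 19778 genes, 38.1% had separate libraries with cdc5 higher and 25.5% with cdc5 lower, and since the set was chosen with this comparison known, nothing is read from the counts. The median log2 fold change over all genes was 0.06. In the authors' deposited table, AOX1A, NDB4 and the minor NDB2 transcript are marked as significant. AOX1C and NDA1 are not marked, with folds of 1.89 and 1.54 and the authors' q-values of 4.7e-07 and 4.0e-82. The mark thus does not rest on the q-value alone.

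The direction of 7 of the 8 genes did not depend on the setting, NDB2 being the exception. Over all settings AOX1A ranged from 2.54 to 2.71, NDB4 from 2.39 to 3.89, AOX1C from 0.56 to 0.87, NDA1 from 0.48 to 0.62 and AOX1B from -0.68 to -0.47 on the log2 scale. NDA2 ranged from -0.33 to -0.18 and NDB1 from -0.33 to -0.09.

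**Figure D4:**
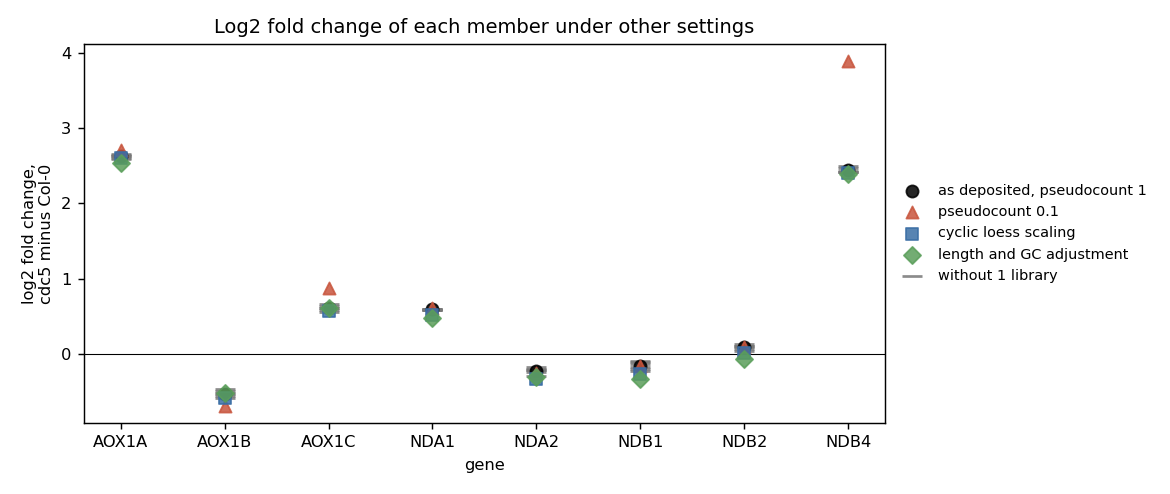
Log2 fold change of cdc5 against Col-0 for the 8 genes that passed the filter, under the main setting, a pseudocount of 0.1, cyclic loess scaling, length and GC adjustment, and without each library in turn. The pseudocount moves NDB4 from 2.44 to 3.89, and NDB2 lies near 0 on both sides.

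The profile most like that of AOX1A, by Euclidean distance between centred log2(FPKM + 1) values over the 6 libraries among 14726 other genes with a mean of at least 5 FPKM, was that of AT2G18193, described as an AAA-ATPase gene (distance 0.187). It stood at 4.53 ± 0.140 FPKM in Col-0 and 29.99 ± 0.372 FPKM in cdc5. ANAC013 was second (distance 0.304), followed by AT1G04267, anac044 and FSD1, the iron superoxide dismutase of the chloroplast (0.575, 0.662 and 0.745). AT2G18193, AT1G04267 and anac044 had Col-0 means of 4.53, 3.03 and 0.237 FPKM. They reached the filter only through their cdc5 libraries and so had to be higher in cdc5. The 5 genes nearest to NDB2, the dehydrogenase gene highest in Col-0, were AT1G26470, CLPP3, AT1G04340, SEC6 and MAP1D (0.0453 to 0.0565), each, like NDB2, with a log2 fold change between 0.06 and 0.11. These distances rest on 6 libraries in 2 groups, so they mainly follow the fold change. That comparison was known when the set was chosen, and nothing is read from the likeness.

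Of the 3 relatives outside the set, 1 fell in cdc5 and none rose. NDB3, an external dehydrogenase gene with 84.8% of aligned coding bases identical to NDB2, was at 5.58, 5.17 and 5.97 FPKM in Col-0 and at 4.04, 4.06 and 4.25 FPKM in cdc5. It fell by 0.36 ± 0.076 (SE) on the log2 scale (limma adjusted p = 0.0037). NDC1, a dehydrogenase gene whose protein is also found in plastids, gave 0.04 (limma adjusted p = 0.52) and PTOX, the plastid terminal oxidase listed as AOX4, gave -0.02 (limma adjusted p = 0.74). Among all 19778 genes, 33.3% were called higher by limma and 22.4% lower (6594 and 4433). Cyclic loess scaling made these counts 5197 and 5145, and adjustment for length and GC content made them 5168 and 5196.

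Among 10 regulators of the mitochondrial stress response, 7 were tested, 2 rose and 2 fell, with a median log2 fold change of 0.08. These counts are near the shares over all genes, 33.3% higher and 22.4% lower, and are no result about the group. ANAC013, an endoplasmic reticulum NAC factor that acts on AOX1A, was at 7.38, 7.49 and 7.13 FPKM in Col-0 and at 42.3, 45.1 and 41.4 FPKM in cdc5, and rose 5.85-fold (log2 fold change 2.40, SE 0.051, limma adjusted p = 6.7e-09). ANAC017, the NAC factor known to start the response from the endoplasmic reticulum, rose from 18.3 ± 0.542 to 26.4 ± 1.12 FPKM (log2 fold change 0.51, limma adjusted p = 4.8e-05). ANAC078 fell by 0.43 and WRKY40, a repressor in this response, fell by 0.32 on the log2 scale (limma adjusted p = 3.4e-05 and 0.0010). The AOX1A repressor gene ABI4 and WRKY63 were listed at or near 0, with means of at most 0.020 FPKM in either genotype. ANAC016, also not tested, was at 0.651 ± 0.205 FPKM in Col-0 and 1.34 ± 0.165 FPKM in cdc5, with separate libraries. With no filter, or without any 1 Col-0 library, 3 regulators were called higher.

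Of 11 known targets of the same response, 10 were tested, and 5 were called higher and 3 lower, against 33.3% and 22.4% of all genes. Loess scaling gave 5 and 5, and the length and GC adjustment 5 and 4. AT2G41730 and DTX3 reached the filter only through their cdc5 libraries and so had to differ. That leaves 3 higher and 3 lower of the other 8, too few to set against those shares. UPOX1, a mitochondrial protein gene used as a marker of oxidative stress, rose from 6.43 ± 0.545 to 21.1 ± 1.05 FPKM (limma adjusted p = 6.3e-07, a rise of 1.57 on the log2 scale). AT5G43450 rose from 7.36 ± 0.354 to 26.0 ± 0.999 FPKM (limma adjusted p = 1.1e-07). SOT12 rose from 4.88 ± 0.375 to 11.4 ± 0.660 FPKM (limma adjusted p = 7.4e-06). AT2G41730 was at 0.25 ± 0.105 and 7.24 ± 0.332 FPKM, a log2 fold change of 2.72, or 4.43 with a pseudocount of 0.1, and DTX3 was at 0.072 ± 0.087 and 4.06 ± 0.420 FPKM. The genes that fell were HSP23.6, HSP23.5 and AT12CYS-1. HSP23.6 and HSP23.5 encode small chaperones of the mitochondrion that are also raised by heat. HSP23.6 fell from 276 ± 10.6 to 43.1 ± 1.68 FPKM (log2 fold change -2.65, limma adjusted p = 2.4e-09). OM66 and AT12CYS-2, targets often read together with AOX1A, were at 24.2 ± 1.32 and 11.9 ± 0.984 FPKM in Col-0 and at 22.1 ± 0.790 and 10.8 ± 0.445 FPKM in cdc5 (limma adjusted p = 0.078 and 0.13). OM66 was called lower after loess scaling and after the length and GC adjustment (range 0.0012 to 0.23). AT12CYS-2 was called lower after loess scaling and without Col-0 replicate 1, with limma adjusted p = 0.031 in the latter case (range 0.014 to 0.35).

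In the cytochrome pathway, the route that AOX bypasses, more genes fell than rose. Of 26 nuclear genes of cytochrome c and complexes III and IV, 14 fell and 2 rose, with a median log2 fold change of -0.14, against 22.4% lower and 33.3% higher over all genes. Loess scaling gave 9 and 5, and the length and GC adjustment 9 and 1. Over all genes, loess scaling called 5145 lower and 5197 higher, and the length and GC adjustment 5196 lower and 5168 higher. The list was chosen with earlier results of these data known, so nothing about the pathway is read from the counts. QCR7-2, a complex III subunit gene, fell from 73.7 ± 5.32 to 31.3 ± 0.340 FPKM (limma adjusted p = 6.0e-07, a log2 difference of -1.21). COX5c-3, a complex IV subunit gene, fell from 32.4 ± 1.40 to 13.6 ± 1.10 FPKM (limma adjusted p = 1.8e-06, a log2 difference of -1.20). MPPbeta, a complex III subunit that also processes imported proteins, and COX6b-2 fell by 0.45 and 0.29 on the log2 scale (limma adjusted p = 1.5e-05 and 2.4e-04). The genes that rose were RISP-1 and RISP-2, which encode the Rieske iron-sulfur protein, with log2 fold changes of 0.22 and 0.11 (limma adjusted p = 0.0011 and 0.028). The RISP-2 call was lost without Col-0 replicate 2 or 3 and without cdc5 replicate 1 or 2, at limma adjusted p = 0.069, 0.061, 0.108 and 0.063 (range over all alternatives 0.0048 to 0.12). The list then had 1 higher gene, and it had 3 without Col-0 replicate 1. The length and GC adjustment also lost the RISP-2 call (limma adjusted p = 0.12).

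For other entries to the respiratory chain, the counts are again set against 33.3% of all genes called higher and 22.4% lower. For succinate dehydrogenase (complex II), 4 of 11 tested genes fell and none rose, with a median of -0.14. SDH8 fell from 146 ± 4.92 to 91.9 ± 13.7 FPKM and SDH6 from 92.2 ± 5.53 to 77.6 ± 0.886 FPKM (limma adjusted p = 0.0035 and 0.0017). SDH7A and SDH7B gave limma adjusted p = 0.018 and 0.046. Leaving out Col-0 replicate 2, Col-0 replicate 3 or cdc5 replicate 1 lost both calls, with limma adjusted p = 0.064, 0.058 and 0.061 for SDH7A and 0.133, 0.103 and 0.139 for SDH7B. SDH7A was also lost without cdc5 replicate 3 (0.063) and SDH7B without cdc5 replicate 2 (0.130). Both were lost after the length and GC adjustment (limma adjusted p = 0.092 and 0.39), and SDH7B with no filter (0.069). Their ranges over all alternatives were 0.0075 to 0.092 and 0.011 to 0.39. The list had 2 lower genes without Col-0 replicate 3, 5 after loess scaling and 3 after the length and GC adjustment. These 11 genes are too few to set against the shares over all genes. Among 10 other electron donors, 2 rose (PYRD and ETFQO, 0.31 and 0.28 on the log2 scale) and 3 fell (PRODH1, PRODH2 and D2HGDH). Either scaling gave 1 and 3. The 5 calls among 10 genes are near the shares over all genes and are no result about these donors. D2HGDH had limma adjusted p = 0.019, and 0.058, 0.061 and 0.066 without Col-0 replicate 2, Col-0 replicate 3 or cdc5 replicate 2 (range 0.0019 to 0.066). PRODH1 and PRODH2 encode proline dehydrogenases and gave -0.18 and -0.40 (limma adjusted p = 0.0030 and 0.0031).

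Of 6 uncoupling and dicarboxylate carrier genes, 3 fell and 1 rose, too few to set against the shares over all genes. The dicarboxylate carrier genes DIC1 and DIC2 fell to 0.813 and 0.765 times their Col-0 means, from 86.8 ± 3.75 and 61.2 ± 1.69 to 70.6 ± 0.267 and 46.8 ± 3.13 FPKM (limma adjusted p = 2.9e-04 and 3.2e-04). UCP1 and UCP3 gave -0.10 and 0.26 (limma adjusted p = 0.036 and 0.018). The UCP1 call held in 4 of 12 alternatives, with limma adjusted p from 0.034 to 0.21, and among the left-out libraries it held only for Col-0 replicate 1. Without the others it stood at 0.087 and 0.074 (Col-0 replicates 2 and 3) and at 0.060, 0.108 and 0.085 (cdc5 replicates 1, 2 and 3). The UCP3 call was lost without Col-0 replicate 1 or cdc5 replicate 1, at limma adjusted p = 0.054 and 0.055 (range 0.0063 to 0.16). That left 0 higher carriers, and 2 were higher without cdc5 replicate 3. Loess scaling also lost the UCP3 call (limma adjusted p = 0.16).

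**Figure D5:**
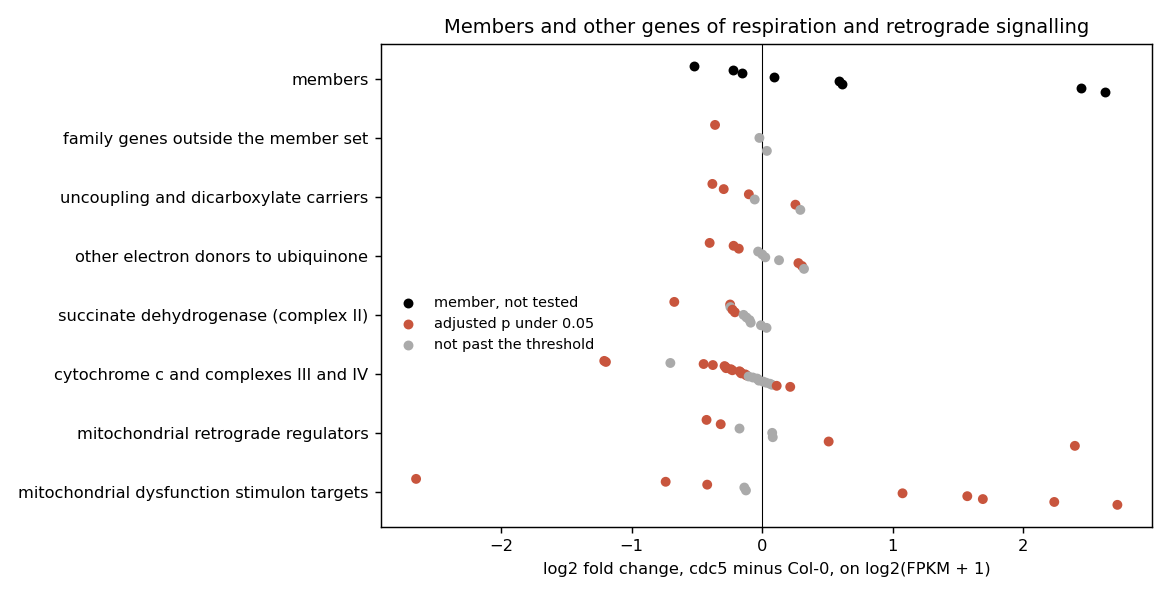
Log2 fold change of cdc5 against Col-0 for the 8 members that passed the filter (black, not tested) and for the tested genes of 7 other lists, red where the limma adjusted p was under 0.05 and grey elsewhere. On log2(FPKM + 1), AOX1A and NDB4 lie near 2.6 and 2.4 and ANAC013 at 2.40. With a pseudocount of 0.1, NDB4 lies at 3.89 and ANAC013 at 2.53. Most genes of the cytochrome pathway and complex II lie between -0.5 and 0.3.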

How the data were processed

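The authors deposited 1 table with the FPKM of each transcript in each library and with their fold (ratio of means), its log2 value, a p-value and a q-value, per the file headers. Exon numbers and transcript lengths in the deposited table are annotation, kept as a score column. Tools listed without roles per the submitters' processing notes are StringTie 1.3.4d, HISAT2 2.0.4, cutadapt 1.9, edgeR and DESeq2, and the mouse genome build listed there cannot apply. Spans of 97.8% of 27696 nuclear genes equal those of TAIR10.1, including all 10 members, so sequences were read from that build.

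Transcript FPKM values were summed to give gene levels. Genes with a mean of at least 1 FPKM were compared by limma 3.58.1 (R 4.3.3) on log2(FPKM + 1), with an intensity trend, robust moderation and no covariate, calling genes at p under 0.05 after Benjamini-Hochberg adjustment over all 19778. The fit was tested on simulated data. Values after ± are SD. With 3 libraries against 3, an exact permutation test cannot give a p below 0.1. Steps of low values in transcripts of at least 600 bases lay within 0.1 of a whole fragment in 63.8% to 70.1% of cases at the best depth, too few to recover counts. Squared differences between replicates were 3.72 to 4.87 times those of counting, so none was treated as a copy. Identity was counted over global alignments of coding sequences (Biopython 1.88). Tables and plots used pandas 2.3.3, matplotlib 3.10.9, numpy 2.4.6 and Python 3.11.15.

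The members and lists were chosen with earlier results of these data known. Named are all members, their relatives, the 4 smallest adjusted p of each list, the 5 profiles most like the highest AOX and dehydrogenase gene, and overlapping genes. Other names (among them HSP23.5, DTX3, SOT12, MS1, TDF1, VGD1, AT12CYS-1, AT12CYS-2, OM66, ABI4, WRKY63, ANAC016, RISP-1, RISP-2 and D2HGDH) were chosen after their values were seen. No sequences of proteins were used here.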

Additional observations from a re-analysis of the deposited data

How the results depend on the processing

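The counts of genes called over the whole table stayed within 1.5 times under each of the 12 alternatives for which they were counted. Among the lists, a filter at 5 FPKM left 0 relatives called lower (NDB3 lies under it) and 3 stress targets higher. With no filter, 2 carriers were higher. After cyclic loess scaling, 0 carriers and 1 electron donor were higher, the cytochrome pathway gave 5 higher and 9 lower, and 5 stress targets were lower. After length and GC adjustment, 2 carriers, 1 electron donor and 1 cytochrome pathway gene were higher and 9 cytochrome pathway genes lower. Leaving out 1 library gave 0 to 2 carriers higher, 2 to 5 complex II genes lower and 1 to 3 cytochrome pathway genes higher. Values close to 0 turned: NDB2 to -0.065 after length and GC adjustment, NDC1 to -0.058 after loess scaling and -0.091 after that adjustment, and PTOX to 0.0059 without cdc5 replicate 2 (-0.044 to 0.0059 over the left-out libraries). The cause was not tested. ETFQO missed the threshold after both scalings (adjusted p = 0.13 and 0.20, range over alternatives 0.0060 to 0.20). Deviations of same-numbered libraries correlated at 0.043, 0.059 and 0.004, so the numbers were not taken as pairs, and with a replicate block 6345 genes were higher and 4289 lower. Depth limits AOX1D and AOX2, which stayed under 3 fragments.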
